A study of Arabidopsis thaliana with 6 samples.

Results

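The type I MADS genes of Arabidopsis thaliana described here are AGL62, PHE1, PHE2, AGL80, AGL90, AGL28, AGL36, AGL40 and AGL61. These 9 genes were taken by row ID, a locus name followed by _at, from a table of 27826 rows, and all 9 were found there and tested. The RNA came from embryos at the 16-cell stage, 72 h after hand pollination, and was measured on 6 microarrays. On 3 nuclear arrays it came from embryo nuclei pulled out with INTACT, a method that tags the nuclear envelope of chosen cells with biotin, here with a marker of the whole embryo. On 3 cellular arrays it was total RNA of whole embryos picked out by hand with a micromanipulator. Each group holds 3 samples called biological replicates in the labels, which name no mutant or treatment, nor the promoter behind the INTACT tag, and the nuclear and cellular groups differ in isolation method as well as in RNA compartment. Values are the authors' RMA intensities (a background-corrected, normalized summary of a gene's probes) on the log2 scale. No detection calls come with the table, and having only 3 arrays a group limits the precision.

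MADS-box proteins are transcription factors that bind DNA as dimers. The type I class is divided into Mα, Mβ and Mγ clades, and Mα proteins commonly pair with Mγ proteins. Many type I genes are active in the central cell and in the endosperm, the nourishing seed tissue next to the embryo, and several are imprinted or held down there by the FIS Polycomb complex. Of the 9 genes, 4 are of the Mα clade (AGL62, AGL28, AGL40 and AGL61) and 5 of the Mγ clade (PHE1, PHE2, AGL80, AGL90 and AGL36).

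The 9 genes lay low on every array, and none passed the test of nuclear against cellular RNA. Array medians over all 27241 genes tested lay between 2.56 and 2.68 on the nuclear arrays and between 2.47 and 2.53 on the cellular arrays. The median of the 9 genes was 1.95, 1.79 and 1.71 on nuclear replicates 1 to 3, against 1.48, 1.50 and 1.61 on cellular replicates 1 to 3. Of the 54 values, 3 were above their array's median: that of PHE1 on nuclear replicate 2 and those of PHE1 and AGL28 on cellular replicate 3. Of the 9 genes, 7 were below the array median on all 6 arrays, as were 29.2% of all genes tested. How bright a probe set is depends on its probes as well as on RNA amount, so these positions do not rank the genes by abundance. In such bulk RNA, fewer cells of a type and less RNA per cell cannot be told apart.

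**Figure D1:**
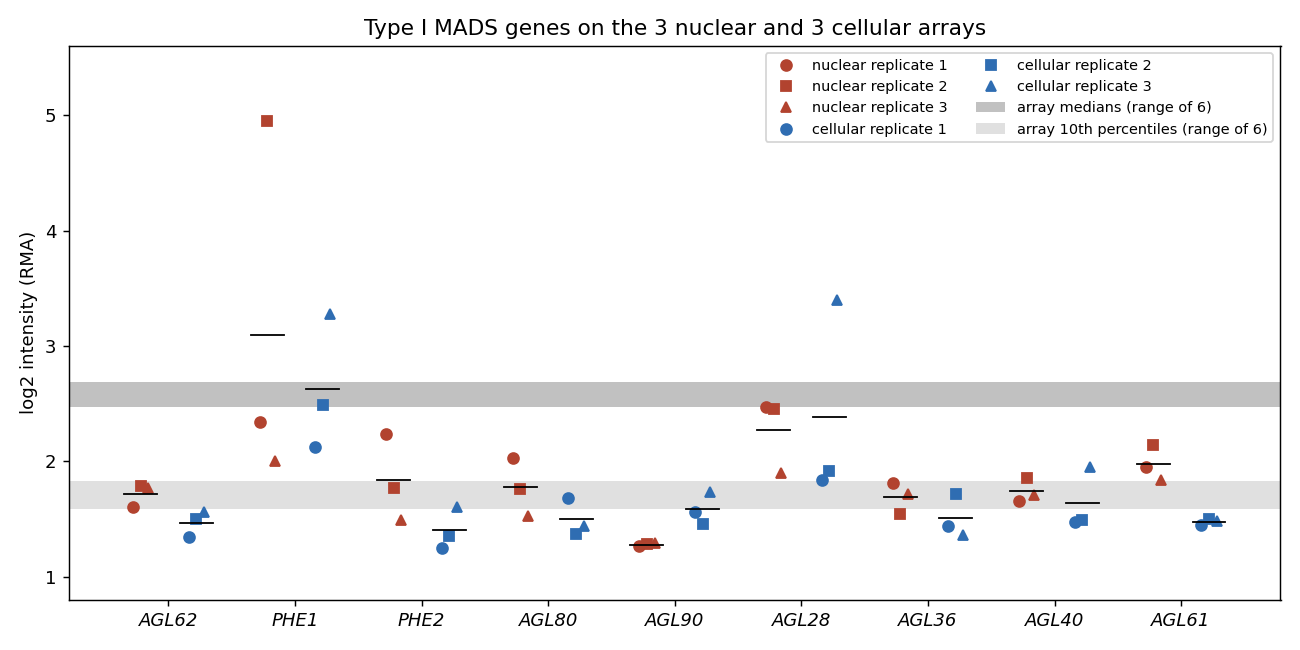
Log2 intensity of the 9 type I MADS genes on each array, with nuclear arrays left of cellular arrays for each gene. Points are single arrays, black lines are means of 3 arrays, and the bands span the medians and the 10th percentiles of the 6 arrays. PHE1 on nuclear replicate 2 (4.95) and AGL28 and PHE1 on cellular replicate 3 (3.39 and 3.28) stand above the band of medians.

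Nuclear and cellular arrays were compared gene by gene with limma, a linear model with a spread shared across genes (two-sided, Benjamini-Hochberg adjusted over all genes tested, threshold 0.05). None of the 9 genes passed, against 5.86% of all genes, of which the larger part was lower in nuclear RNA. Over the full set tested, 1.15% of genes were called higher and 4.71% lower in nuclear RNA. At an unadjusted p under 0.05, 1 of the 9 genes differed (AGL61), against 23.5% of all genes. The median log2 change of the 9 was 0.25, and that of all genes 0.13. After cyclic loess these medians were 0.065 and 0.024, after quantile normalization 0.11 and 0.044, and after centring 0.14 and 0.026. Without nuclear replicate 1 the median of the 9 was 0.15. Nuclear means were above cellular means for 7 of the 9 as deposited, and for 16601 of all 27241 genes. Of the 9, they were above for 5 after cyclic loess and for 6 after quantile normalization or after centring each array on its median.

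The Mα gene AGL62 (AT5G60440_at) keeps the young endosperm dividing as a syncytium, without cell walls, and its loss brings walls on too early. It measured 1.60, 1.79 and 1.77 on nuclear replicates 1 to 3, against 1.34, 1.50 and 1.56 on cellular replicates 1 to 3. All nuclear values were above all cellular values, and all 6 lay within the lowest 14.1% of their array. The log2 change was 0.25 (SE 0.18, 95% interval -0.18 to 0.68, adjusted p = 0.416). Arrays of the groups were apart in this direction for 18.6% of all genes.

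AGL61 (AT2G24840_at), also known as DIANA, is an Mα gene needed for central cell development. Its values were 1.95, 2.14 and 1.84 on the nuclear arrays, against 1.45, 1.50 and 1.48 on the cellular arrays. The groups did not overlap, as for 18.6% of all genes in this direction. The cellular arrays differed little among themselves (SD 0.027, against 0.15 on the nuclear arrays, n = 3 each). The nuclear mean was 1.41-fold above the cellular mean, at a log2 change of 0.50 (SE 0.18, 95% interval 0.07 to 0.93). That gene had the lowest p of the 9, 0.0287 before and 0.164 after adjustment in limma.

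AGL80 (AT5G48670_at) is the Mγ partner of AGL61 in the central cell. It measured 2.03, 1.76 and 1.52 on nuclear replicates 1 to 3, against 1.68, 1.37 and 1.44 on cellular replicates 1 to 3. The groups overlapped, since nuclear replicate 3 was below cellular replicate 1. Nuclear minus cellular, the log2 change was 0.28 (95% interval -0.24 to 0.79, adjusted p = 0.451).

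AGL28 (AT1G01530_at) is an Mα gene whose maternal allele is the active one in endosperm. It was 2.47, 2.45 and 1.89 on the nuclear arrays, against 1.83, 1.92 and 3.39 on the cellular arrays. Cellular replicate 3 was the highest of the 6, at percentile 67.1 of that array, while cellular replicate 1 was the lowest. Its log2 change was -0.11 (95% interval -1.22 to 1.00, adjusted p = 0.893), and it was 0.39 without cellular replicate 3.

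AGL40 (AT4G36590_at), the fourth Mα gene, measured 1.66, 1.86 and 1.70 on nuclear replicates 1 to 3. On cellular replicates 1 to 3 it measured 1.48, 1.49 and 1.95. As with AGL28, cellular replicate 3 was the highest array. On the log2 scale the change was 0.10 (95% interval -0.41 to 0.61, adjusted p = 0.783), and it was at or below -0.0059 under all 3 other scalings of the arrays.

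PHE1 (PHERES1, AT1G65330_at) is an Mγ gene expressed mainly from its paternal allele, with the maternal copy held down by FIS Polycomb. It was 2.34, 4.95 and 2.00 on nuclear replicates 1 to 3, against 2.12, 2.49 and 3.28 on cellular replicates 1 to 3. The value on nuclear replicate 2 was at percentile 89.6 of its array, while nuclear replicates 1 and 3 had it at percentiles 40.6 and 27.3. Nuclear values averaged 3.10 ± 1.61 and cellular values 2.63 ± 0.59 (SD, n = 3 each), so the groups overlapped. Its log2 change was 0.47 (SE 0.80, 95% interval -1.48 to 2.41, adjusted p = 0.737), and without nuclear replicate 2 it was -0.46. Differences of up to 5.32-fold in the nuclear direction were within the interval, which was the widest of the 9.

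PHE2 (AT1G65300_at), a close paralogue of PHE1, lies near it on chromosome 1 with 2 protein-coding genes between them. It did not share the value on nuclear replicate 2: it was 2.24, 1.77 and 1.49 on nuclear replicates 1 to 3, against 1.25, 1.35 and 1.61 on cellular replicates 1 to 3. The highest PHE2 array was nuclear replicate 1, and nuclear replicate 3 was below cellular replicate 3. The change on the log2 scale was 0.43 (95% interval -0.18 to 1.04, adjusted p = 0.341). The 2 rows hold different values on all arrays, but whether probes of these close copies also bind each other's RNA was not tested.

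AGL36 (AT5G26650_at) is an Mγ gene known for expression from the maternal allele in endosperm. It measured 1.81, 1.55 and 1.71 on the nuclear arrays, against 1.44, 1.71 and 1.36 on the cellular arrays. The groups overlapped at cellular replicate 2. The log2 change was 0.18 (95% interval -0.28 to 0.65, adjusted p = 0.575), and it was -0.0011 after cyclic loess.

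AGL90 (AT5G27960_at), an Mγ gene related to AGL36, had the lowest nuclear values of the 9. It was 1.26, 1.28 and 1.29 on the nuclear arrays, against 1.56, 1.46 and 1.74 on the cellular arrays. On each nuclear array it was within the lowest 0.308% of genes, and the cellular arrays had it between percentiles 3.75 and 16.4. All nuclear values were below all cellular ones, as for 14.4% of all genes. Its log2 change was -0.31 (SE 0.17, 95% interval -0.73 to 0.11, adjusted p = 0.332).

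**Figure D2:**
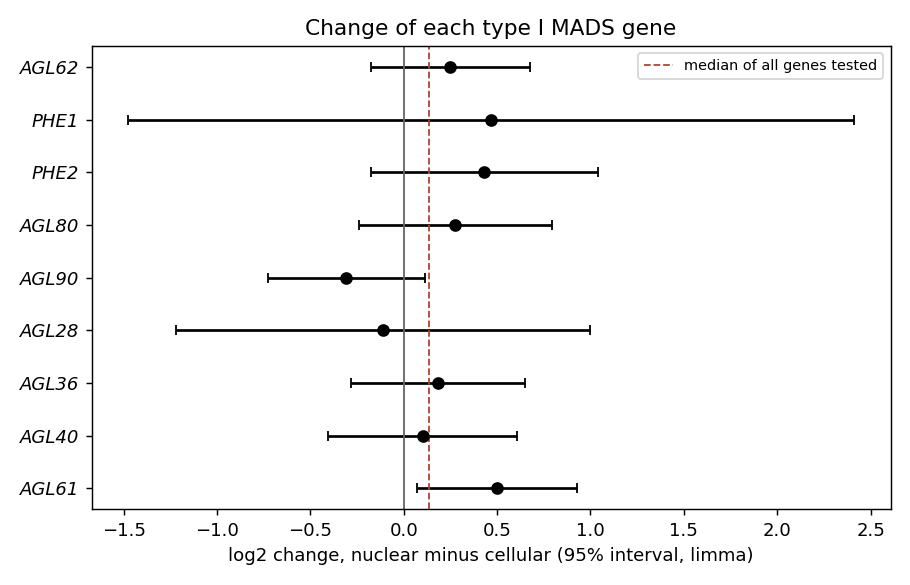
Log2 change, nuclear minus cellular, of each type I MADS gene with its 95% interval from limma (3 nuclear and 3 cellular arrays). The intervals of 8 genes include 0, and that of AGL61 runs from 0.07 to 0.93 before any adjustment for the number of genes tested. The dashed line is the median of all genes, 0.13.

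For the 7 genes other than PHE1 and AGL28, all changes were at most 1.41-fold and the limma intervals together ran from -0.73 to 1.04 on the log2 scale. These values were close to the dim end of the arrays, which itself differed between the groups. The 10th percentile of all genes was 1.78, 1.82 and 1.69 on nuclear replicates 1 to 3, against 1.58, 1.58 and 1.63 on cellular replicates 1 to 3. The median of the 9 genes stood 0.17, -0.037 and 0.028 from that mark on the nuclear arrays, and -0.11, -0.083 and -0.025 from it on the cellular arrays. From 3 to 5 of the 9 genes were below the mark on each nuclear array and 5 or 6 on each cellular array. AGL61 lay above it by 0.17, 0.32 and 0.15 on the nuclear arrays and below it on all cellular arrays (-0.14, -0.083 and -0.15). AGL90 went the other way, at -0.51, -0.55 and -0.40 from the mark on the nuclear arrays, against -0.025, -0.13 and 0.11 on the cellular arrays. The 10th percentile was chosen as a mark after these values were seen. Array folds measured at such low intensities are generally understated.

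Most other type I genes were dim as well. Of 47 further genes listed by name, 40 were matched to one row, and none passed the limma test. Means over the 6 arrays were above the median of all values for 5 of these 40 (12.5%) and for 1 of the 9 genes, PHE1, against 52.1% of all genes. Among the 8 other Mγ genes the highest mean was that of AGL34, at 2.91, 2.65 and 2.72 on the nuclear arrays, against 2.08, 2.12 and 2.94 on the cellular arrays (log2 change 0.38, adjusted p = 0.438, with 0.66 without cellular replicate 3 and 0.23 without cellular replicate 1). Among the 15 other Mα genes it was that of AGL64, which was 3.22, 2.85 and 7.19 on nuclear replicates 1 to 3, against 2.29, 2.17 and 3.23 on cellular replicates 1 to 3. AGL64 was thus bright on 1 array. Its log2 change of 1.86 (SE 1.15, adjusted p = 0.365) became 0.47 without nuclear replicate 3. AGL57, another Mα gene, had all nuclear values (2.54, 3.69 and 2.74) above all cellular values (2.43, 2.20 and 2.35), as did 18.6% of all genes. Its log2 change was 0.66 (adjusted p = 0.282), and 0.31 without nuclear replicate 2.

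Of the 17 Mβ genes, AGL49 had the highest mean. It measured 10.56, 8.97 and 3.42 on nuclear replicates 1 to 3, against 1.86, 3.04 and 2.45 on cellular replicates 1 to 3. All nuclear values were above all cellular ones, as for 18.6% of all genes, but nuclear replicate 3 stood near the cellular arrays. The log2 change of 5.20 (SE 1.75, 95% interval 0.98 to 9.42) was the highest of all 27241 genes, yet it did not pass limma (adjusted p = 0.146). It was 3.74 without nuclear replicate 1 (adjusted p = 0.256) and 4.54 without nuclear replicate 2 (0.309). Without nuclear replicate 3 it was 7.31 with an adjusted p of 0.0149, the only alternative under which AGL49 was called. AGL89 had the next highest Mβ mean, at 2.90, 3.49 and 2.79 on the nuclear arrays, against 2.47, 2.37 and 2.64 on the cellular arrays.

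**Figure D3:**
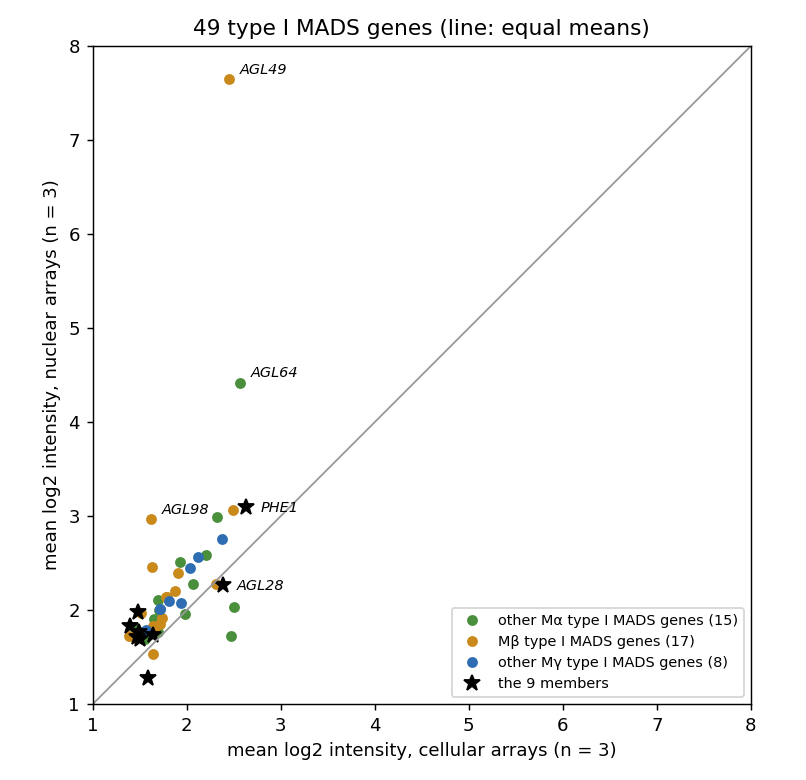
Mean log2 intensity of 49 type I MADS genes on the 3 nuclear arrays (vertical axis) and the 3 cellular arrays (horizontal axis), with the 9 genes of this account as stars and the line of equal means. Most lie between 1 and 3 on both axes, and AGL49 stands apart at 7.65 on the nuclear and 2.45 on the cellular axis.

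Genes of the type II class, which holds the floral organ and ovule MADS factors, had means above the median of all values in 14 of 35 cases, and none was called. STK, a regulator of ovule identity, was 7.45, 5.66 and 6.78 on the nuclear arrays, against 3.68, 5.79 and 7.31 on the cellular arrays (log2 change 1.04, adjusted p = 0.523). Its change was 0.080 without cellular replicate 1 and 1.89 without cellular replicate 3. AGL15, a factor of embryo tissue named after its values were seen, was 1.90, 2.30 and 2.02 on the nuclear arrays, against 4.54 to 9.23 on the cellular arrays. All its nuclear values were below all cellular ones, as for 14.4% of all genes, with a change of -4.52 on the log2 scale (SE 1.12). Its adjusted p in limma was 0.0722. With an array left out, it was called lower without cellular replicate 1 (adjusted p = 0.0468) or 3 (0.0292). It was not called without cellular replicate 2 (0.179) or without nuclear replicates 1, 2 or 3 (0.151, 0.163 and 0.139). Of 8 listed Polycomb and imprinting regulators, none was called as deposited. Without cellular replicate 3, 3 were called lower (CLF, MSI1 and MET1), as were 1688 of all 27241 genes. None was called with any other array left out. The median log2 change of the 8 was -0.67, with 6 below 0, as were 10640 of all 27241 genes. CLF, a Polycomb methyltransferase, was 2.76, 4.37 and 4.09 on the nuclear arrays, against 6.73, 6.26 and 4.55 on the cellular arrays (log2 change -2.11, adjusted p = 0.135). SWN, a methyltransferase of the same kind, was 4.21, 5.16 and 4.13 on the nuclear arrays, against 4.75, 5.53 and 4.18 on the cellular arrays (log2 change -0.32, adjusted p = 0.666), and its change was 0.033 without cellular replicate 2. The histone-binding subunit MSI1 was 3.29, 3.96 and 2.78 on the nuclear arrays, against 6.32, 5.43 and 4.54 on the cellular arrays (log2 change -2.09, adjusted p = 0.0719). MEA and FIS2, the subunits most tied to the endosperm complex and named after their values were seen, were dim. MEA measured 2.40, 2.52 and 1.88 on the nuclear arrays, against 1.65, 2.00 and 1.80 on the cellular arrays, and FIS2 measured 1.62, 2.08 and 1.95 on the nuclear arrays, against 1.50, 1.58 and 1.71 on the cellular arrays. Their log2 changes were 0.45 and 0.29 (adjusted p = 0.308 and 0.410).

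The other endosperm markers were dim as well. Of 16 that are not MADS genes, 3 had a mean above the median of all values and none passed the test. At an unadjusted limma p under 0.05, 1 was higher and 1 lower, against 23.5% of all genes in either direction. The median of that list was 2.22, 2.48 and 2.14 on nuclear replicates 1 to 3, against 1.92, 1.84 and 2.18 on cellular replicates 1 to 3. The highest was SUC5, a sucrose carrier, at 4.11, 3.94 and 4.23 on the nuclear arrays, against 4.27, 5.58 and 5.07 on the cellular arrays (log2 change -0.88, adjusted p = 0.200). The medians of the endosperm list and of the 9 genes thus both stayed below the median of all genes on every array.

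Most markers of the seed coat, the maternal layer around the seed, were bright on the same arrays. The median over 9 such genes was 6.89, 5.84 and 5.88 on the nuclear arrays, against 3.07, 4.41 and 5.30 on the cellular arrays. Of the 9, 8 had a mean above the median of all values, as did 52.1% of all genes. Above the array medians on all 6 arrays were 6 of the 9, and 8585 of all 27241 genes. All 9 had higher nuclear means, as did 16601 of all 27241 genes. None of the 9 was called, including DFR, a tannin enzyme (log2 change 2.35, adjusted p = 0.152, and 1.44 without cellular replicate 1). Markers of the embryo itself ran the other way, with a median over 13 genes of 2.65, 2.84 and 2.24 on the nuclear arrays, against 7.24, 5.99 and 5.67 on the cellular arrays. Of these, 9 fell and none rose in nuclear RNA, where 4.71% of all genes were called lower and 1.15% higher. Without cellular replicate 2, 4 fell, and 254 of all 27241 genes were called lower. Nuclear means were lower for 12 of the 13, as for 10640 of all 27241 genes, and higher for 1 (log2 change 0.46, not called). Not all were dim in nuclear RNA. The 3 with the highest means, MP, PDF2 and ATML1, were above the array medians on all 6 arrays. Their nuclear means were 5.66, 6.02 and 5.42, against cellular means of 7.74, 7.21 and 7.34. Of these 3, only MP was called lower (adjusted p = 0.0197 in limma). LEC1, a regulator of embryo identity, was 2.26, 2.20 and 2.26 on the nuclear arrays, below the array medians, against 6.60, 5.99 and 6.24 on the cellular arrays (log2 change -4.03, SE 0.21, adjusted p = 0.00245). WOX2, a homeobox gene of the apical lineage, fell by 4.91 on the log2 scale (adjusted p = 0.0150, 0.0536 without nuclear replicate 2 and 0.0737 without cellular replicate 2). ESR1, an AP2-type factor, fell by 4.32 (adjusted p = 0.0138, 0.0669 without cellular replicate 2). The part of these surrounding and embryo signals in the values of the 9 genes was not tested.

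**Figure D4:**
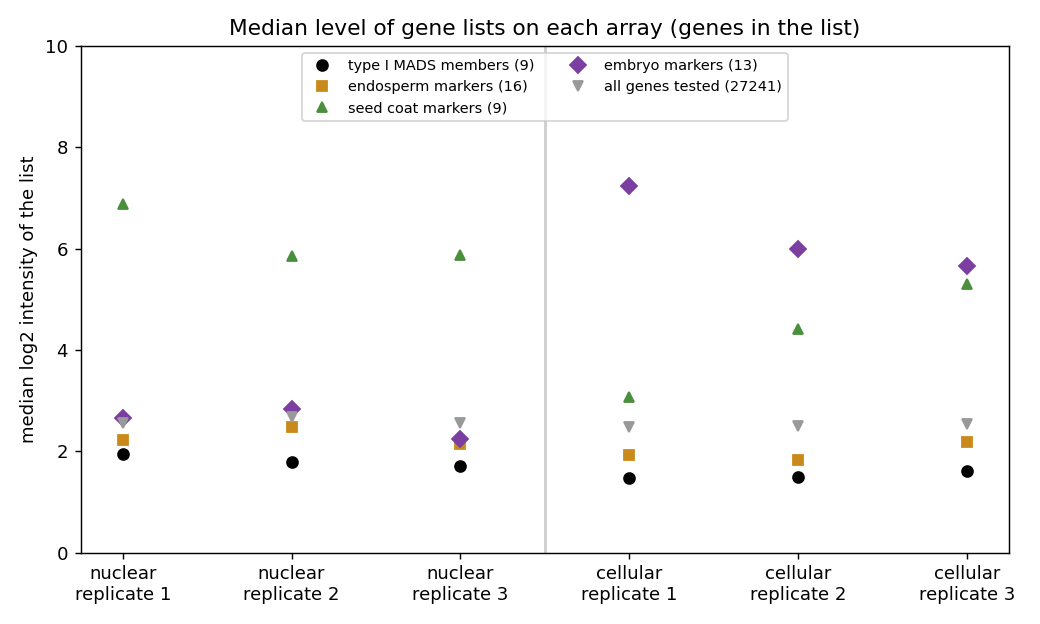
Median log2 intensity on each array of the 9 type I MADS genes, of the endosperm, seed coat and embryo markers and of all genes tested, with nuclear arrays left of cellular arrays. The 9 genes stay between 1.48 and 1.95 on all arrays, while the seed coat list spans 3.07 to 6.89 and the embryo list 2.24 to 7.24.

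PHE1 had both the highest mean and the largest SD of the 9 over the 6 arrays. Among 14205 genes brighter on average than the median of all values, the 3 most like it in Pearson's r over the 6 arrays were AT3G47840 (r = 0.997), LIS (AT2G41500, r = 0.991) and AT1G31950 (r = 0.982). Over the 5 arrays other than nuclear replicate 2, these r were 0.984, 0.967 and 0.940. The 3 genes had been picked by r over all 6 arrays, so these values are no independent check. In all, 30 of the 14205 genes had r above 0.95, and all such values rest on the same 6 arrays.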

How the data were processed

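RNA from 6 samples was measured on 6 microarrays, 3 nuclear and 3 cellular, grouped and numbered by the sample titles. Before deposit the authors ran RMA, per the submitters' processing notes, and the deposited values are intensities on a linear scale. The version, array type, probe definitions and genome build are not given in the sources used here, so no coordinates are printed. Log2 was taken once, with no filter. Of 27826 rows, 27241 matched a locus of a RefSeq gene table (TAIR10.1) and went into one model (R 4.3.3, limma 3.58.1; lmFit, then eBayes; nuclear minus cellular, two-sided, Benjamini-Hochberg adjusted p under 0.05). The other 585 were left out. Intervals are limma's 95% intervals. The fit was tested on simulated data. The members and lists were chosen with earlier results of these data known. Named are all 9 members and, in each list, some of the called genes with the largest changes and some of the genes with the highest means. LEC1, MEA, FIS2, MET1, AGL15, AGL98, SHP1, SVP, TTG2, AT1G49290, NAT7 and UMAMIT35 fall outside that rule and were named after their values were seen. Of the listed symbols, 7 were not matched to one row and are not analysed here. Protein identity between members was not analysed here. Replicate 1 to 3 are names shared by both groups. Alternatives were other scalings, a filter on dim genes, other variance models, a replicate block, all rows, and each array left out in turn.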

Additional observations from a re-analysis of the deposited data

How the results depend on the processing

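None of the 9 genes was called under any of the 14 alternatives, where the filter on dim genes left PHE1 alone to be tested. Adjusted p for AGL61 lay between 0.0557 (trended robust variance) and 0.351. The change of AGL36 was -0.0011 after cyclic loess. That of AGL40 was -0.094 after cyclic loess, -0.057 after quantile normalization and -0.0059 after centring on medians. That of AGL28 was 0.043 with array weights. The change of SWN was 0.11 after cyclic loess and 0.094 after quantile normalization. With 1 array left out at a time, PHE1 ran from -0.46 to 1.02, AGL28 from -0.39 to 0.39, PHE2 from 0.23 to 0.60, AGL80 from 0.15 to 0.40, AGL36 from 0.11 to 0.29, AGL40 from 0.019 to 0.26 and SWN from -0.65 to 0.033. The median of the members' means minus the array medians was -0.92, and -1.13 after cyclic loess. The members with a mean above the array medians numbered 0 or 1 with an array left out (0 without nuclear replicate 2). Over all genes 313 were higher and 1284 lower, 80.4% lower. After cyclic loess these were 489 and 846 (63.4% lower), after quantile normalization 426 and 928 (68.5% lower), and with a replicate block 118 and 571. With an array left out they ran from 28 to 419 and from 254 to 1688, both lowest without cellular replicate 2 and highest without cellular replicate 3. Over brighter genes alone, 1 type II gene (AGL15) and 1 Polycomb gene (MSI1) fell, and with the trended robust variance 1 type II gene (AGL15) fell and 1 endosperm marker (AT1G49290) rose. With an array left out, type II genes had 0 to 1 rises (SHP1) and 0 to 2 falls (AGL15, SVP), Mβ genes 0 to 1 rises (AGL49), Polycomb genes 0 to 3 falls, seed coat markers 0 to 1 rises (TTG2) and embryo markers 4 to 9 falls. The causes were not tested. Same-numbered nuclear and cellular arrays deviated together at r = -0.053, -0.057 and -0.012, and no array correlated best with its own number. With 3 arrays a group such values cannot show whether same-numbered samples were collected together. The replicate block changed no call of the 9 genes. Values near the dim end of the arrays limit what a fold can show.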

Other observations

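Some type I genes stood well above the rest on a single array. Taking a value at least 1.5 above that of each of the other 5 arrays, a mark set after seeing the data, 4 of 49 type I genes had one, and all were on nuclear arrays. These were PHE1 on nuclear replicate 2 (4.95, next highest 3.28) and AGL64 on nuclear replicate 3 (7.19, next 3.23). On nuclear replicate 1 they were AGL98 (5.51, next 1.96) and AGL49 (10.56, next 8.97). AGL49 was bright on nuclear replicate 2 as well, so it was not high on 1 array alone. Over all genes 4.30% had such a value, in 347, 159 and 359 cases on nuclear replicates 1 to 3 and in 145, 78 and 84 cases on cellular replicates 1 to 3.

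The genes next to AGL49 on chromosome 1 were looked up after its values were seen. NAT7, the protein-coding gene on one side, was 7.91, 5.89 and 4.81 on nuclear replicates 1 to 3, against 2.98, 3.04 and 4.52 on cellular replicates 1 to 3 (log2 change 2.69, limma adjusted p = 0.126). UMAMIT35, on the other side, was 2.59, 2.66 and 1.92 on the nuclear arrays, against 1.75, 1.51 and 1.92 on the cellular arrays (log2 change 0.66, adjusted p = 0.201).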
